A study of Rattus norvegicus with 6 samples.

Results

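The genes described here are 10 MAP kinase phosphatase genes of the DUSP (dual-specificity phosphatase) family: Dusp1, Dusp2, Dusp3, Dusp4, Dusp5, Dusp6, Dusp8, Dusp10, Dusp14 and Dusp16. They were taken by symbol from the 24005 symbols of the deposited expression table, and all 10 were found. They were picked with their differences between treated and control rats already known, so those differences are given below as a description. Where the outcome of a fit across all genes is given for them, nothing is read from it. Dusp7 and Dusp9, the remaining classical MAP kinase phosphatases, were not among the 10 and are described with the rest of the pathway.

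MAP kinases (ERK, JNK and p38) are switched on by phosphorylation of a threonine and a tyrosine in their activation loop, and the DUSP enzymes switch them off by removing both phosphates. Several DUSP genes are themselves transcribed in response to MAP kinase activity, which makes them feedback regulators. In the arterial wall the family is known for limiting the response of smooth muscle and endothelial cells to growth factors, stretch and inflammation.

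The RNA was prepared from aortas taken in a rat model of chronic kidney disease. All rats had undergone a 5/6 nephrectomy in 2 operations and ate a diet with 1.2% phosphorus, which speeds up calcification of the vessel wall. One group received 10 mg/kg of engineered exosomes (ANCR/E7-EXO in the labels; exosomes are vesicles that cells release) by the tail vein every 5 days. The controls were given saline over 13 weeks. Each group held 3 libraries, called exosome 1 to 3 and saline 1 to 3. The labels give no strain, sex or age, and no healthy or untreated rats are analysed here. Nothing in the labels ties a library to an animal of its own, so the spread behind the p-values may be partly technical.

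The implied library totals were 28063355 to 44561082 reads in the exosome group and 29665532 to 34009970 in the saline group. Expression is given as FPKM, in which reads are divided by the length of the gene and the size of the library. Of the markers of the wall, the 8 smooth muscle genes summed to 15270 to 21610 FPKM in the exosome libraries and 13720 to 21540 FPKM in the saline libraries. Markers of some other cells moved with the groups or with single libraries. The 10 endothelial markers summed to 175.3 to 259.1 FPKM in exosome libraries and 123.5 to 162.2 FPKM in saline libraries. Of them 8 were higher with exosomes, 5 with no overlap between the groups, while Kdr and Erg were lower. The 8 macrophage markers summed to 171.3 to 219.4 FPKM in exosome libraries and 153.2 to 162.4 FPKM in saline libraries. Of them 7 were higher with exosomes, 5 with no overlap, while Lyz2 was slightly lower. The 8 fibroblast markers overlapped, with sums of 2387 to 2852 FPKM with exosomes and 2329 to 3295 FPKM with saline. Of the 8 lymphocyte markers Cd4, which rat macrophages also express, stood at 14.3 to 18.9 FPKM with exosomes and 12 to 13.4 FPKM with saline, and each of the other 7 stayed at or below 0.544 FPKM in every library. The 6 adipocyte markers summed to 355.9 to 627.3 FPKM with exosomes and 318.1 to 1099 FPKM with saline, saline 2 being the highest. None of these markers was at 0 in every library. The part of cell composition in the results below was not tested, and in bulk tissue fewer cells of a type and less RNA per cell cannot be told apart. The summed level of the heat shock genes separated exosome 1 and 3 from the other libraries. It was 6076, 1377 and 10840 FPKM in exosome 1, 2 and 3, and 2043, 1656 and 2505 FPKM in saline 1, 2 and 3. Hspb1 gave the most to it in exosome 1 and 3, at 2803 and 5444 FPKM. Not every gene followed the sum, and Dnajb1 was highest in saline 3, at 102.5 FPKM. Saline 1 lay below saline 2 and 3 in some immediate early genes, a class of rapidly induced genes that handling of tissue can also switch on. Their summed level, to which Cyr61 gave the most in the saline libraries, was 794.2, 795.2 and 1158 FPKM in exosome 1, 2 and 3, and 1346, 2434 and 2894 FPKM in saline 1, 2 and 3. Atf3 stood at 8.10, 170.6 and 134.1 FPKM and Jun at 74.3, 252.3 and 286.6 FPKM in saline 1, 2 and 3, whereas Egr1 (281.2, 118.8 and 338.9 FPKM) and Fos (78.4, 48.4 and 115.8 FPKM) did not set saline 1 apart, and Junb and Ier2 were highest there among the saline libraries.

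The regulatory sequence upstream of these genes was read first, since the family includes both constitutive and inducible genes. RefSeq promoters (GRCr8) were matched by symbol for 9 of the 10 genes, with 3 alternative starts for Dusp14, and the 250 bases before each start were searched on both strands. The motifs were the cAMP response element TGACGTCA, its core TGACG (which lies within the full element), the AP-1 site TGANTCA and the CArG box, the site of serum response factor. Dusp1 and Dusp5 are shown because they held the rarer motifs, and Dusp8 and Dusp10 because their levels did not overlap between the groups. Capitals mark cAMP response elements, cores and CArG boxes.
Dusp1, chr10:17184603-17184852, plus strand: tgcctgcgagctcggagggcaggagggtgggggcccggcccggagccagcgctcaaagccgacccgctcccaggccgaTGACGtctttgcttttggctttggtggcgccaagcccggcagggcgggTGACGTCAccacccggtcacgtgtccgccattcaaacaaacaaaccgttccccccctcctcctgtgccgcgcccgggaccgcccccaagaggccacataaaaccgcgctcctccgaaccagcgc
Dusp5, chr1:262543524-262543773, plus strand: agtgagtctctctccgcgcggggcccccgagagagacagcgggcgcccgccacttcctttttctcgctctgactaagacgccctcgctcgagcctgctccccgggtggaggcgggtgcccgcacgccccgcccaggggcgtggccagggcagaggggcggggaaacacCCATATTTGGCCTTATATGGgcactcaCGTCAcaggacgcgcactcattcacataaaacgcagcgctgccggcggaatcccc
Dusp8, chr1:206612442-206612691, minus strand: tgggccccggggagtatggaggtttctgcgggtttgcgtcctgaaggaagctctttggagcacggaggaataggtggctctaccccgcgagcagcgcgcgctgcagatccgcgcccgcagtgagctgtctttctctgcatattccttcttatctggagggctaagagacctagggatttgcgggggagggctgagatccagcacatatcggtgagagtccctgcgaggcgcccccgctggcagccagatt
Dusp10, chr13:98145643-98145892, plus strand: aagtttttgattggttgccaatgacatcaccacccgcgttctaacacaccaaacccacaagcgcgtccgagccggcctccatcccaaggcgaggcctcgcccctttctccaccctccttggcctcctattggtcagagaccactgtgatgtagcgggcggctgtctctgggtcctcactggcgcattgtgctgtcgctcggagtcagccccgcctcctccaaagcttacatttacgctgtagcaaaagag
Dusp1 had 1 full cAMP response element, starting 124 bases before the start, and a further core starting 172 bases before it. The full element was found in 1.59% of the 33469 windows of the same length in the RefSeq table, and the core in 18.22%. Dusp5 had 2 CArG boxes that abut, starting 82 and 72 bases before the start, and 1 core. A CArG box was found in 1.5% of all windows. Dusp2, Dusp3, Dusp16 and 1 of the 3 Dusp14 starts also held 1 core each. The same Dusp14 start held the only AP-1 match among these genes, a motif found in 6.34% of all windows. In these windows Dusp6, Dusp8 and Dusp10 held none of the 4 motifs. These matches describe letters and are not binding sites.

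Levels spanned a wide range. Dusp1 and Dusp3 were the most abundant of the 10 genes, at a mean of 294.3 and 79.8 FPKM over the 6 libraries, and did not overlap with each other or with the rest in any library. Dusp8, Dusp6 and Dusp16 followed at 23.2, 16.1 and 13.3 FPKM, with overlapping ranges. Dusp14, Dusp10 and Dusp4 formed the next group at 5.92, 3.48 and 3.16 FPKM, again with overlapping ranges. Dusp5 and Dusp2 were lowest, at 0.297 and 0.285 FPKM, from 8 to 41 and 4 to 40 recovered reads per library, so counting error is large for both. These 2 genes lay below the minimum of 1 FPKM and stayed out of the fit across all genes, which left 8 of the 10. FPKM is scaled to gene length, so these levels can be set against each other. Dusp1 alone made up 61.6%, 61.2% and 64.5% of the summed FPKM of the 10 genes in exosome 1, 2 and 3, and 59.0%, 71.3% and 77.0% in saline 1, 2 and 3.

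**Figure D1:**
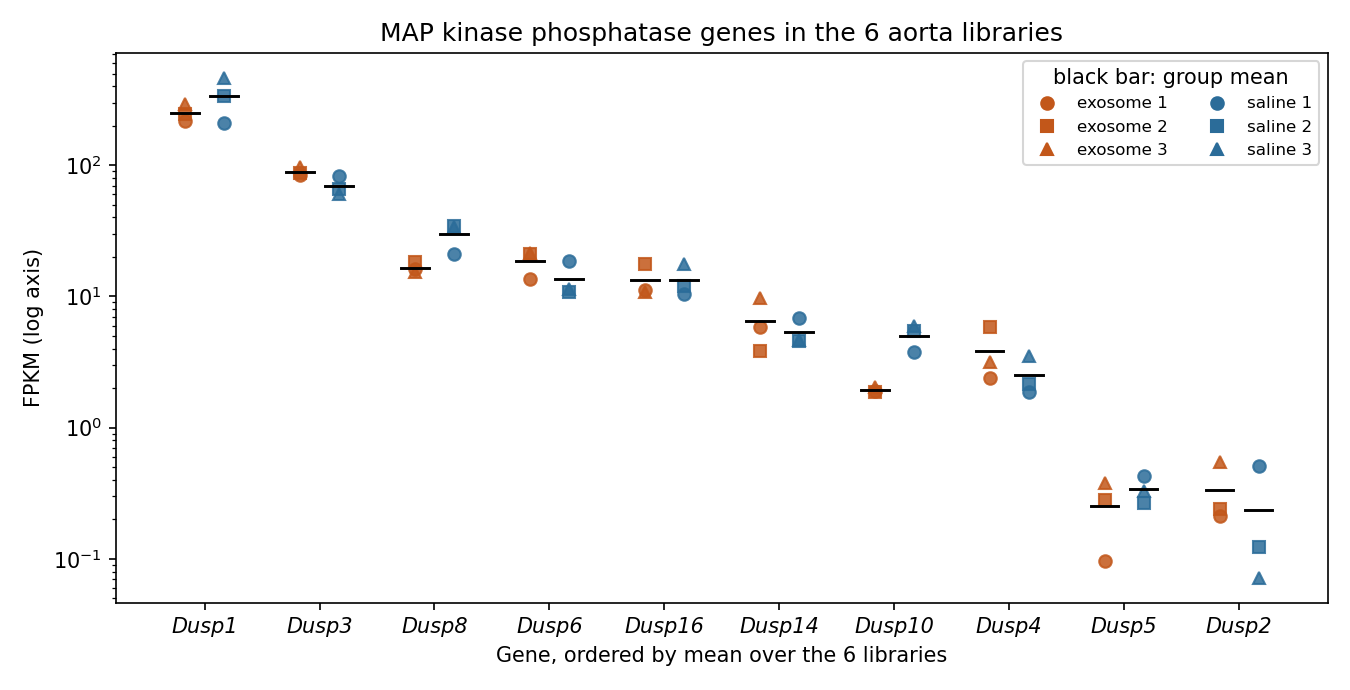
FPKM (log axis) of the 10 phosphatase genes in each library, with exosome libraries left of saline libraries, 1 symbol per library and a black bar at the group mean. For Dusp10 and Dusp8 the 3 exosome libraries lie below all saline libraries, for Dusp3 they lie above them by a small margin, and for the other 7 genes the groups overlap.

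Of the 10 genes, 3 had groups that did not overlap, all of them among the 8 in the fit. Dusp10 and Dusp8 were lower with exosomes and Dusp3 was higher. Over all 11742 genes tested the groups did not overlap for 21.1% (9.4% higher and 11.7% lower with exosomes). None of the 8 phosphatase genes in the fit was called by limma at an adjusted p under 0.05, where 0.00852% of all genes were, a single gene. The voom fit also called none of them. At an unadjusted p under 0.05 there were 3 of the 8 (Dusp3 as higher, Dusp8 and Dusp10 as lower), all 3 of those whose groups did not overlap, where limma put 16% of all genes there (6.75% higher and 9.24% lower). Since the 10 genes were chosen on this contrast, nothing is read from these counts. The median log2 difference (exosome minus saline, log2(FPKM + 1)) of the 8 genes was 0.08, with 4 higher and 4 lower. That of all tested genes was -0.07, with 39.3% of them higher (4609 higher and 7133 lower).

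The JNK- and p38-directed phosphatases come first, because they include both genes that were lower with no overlap between the groups. Dusp10 encodes a phosphatase that acts on JNK and p38 rather than ERK. It stood at 1.91, 1.86 and 2.03 FPKM in exosome 1, 2 and 3, against 3.77, 5.41 and 5.92 FPKM in saline 1, 2 and 3. The exosome libraries were all low and close together, and the lowest saline library, saline 1, still lay above them. Means were 1.93 ± 0.0861 FPKM with exosomes and 5.03 ± 1.12 FPKM with saline (SD, n = 3 each), a ratio of 0.383 and a log2 difference of -1.02 with a standard error of 0.17. The recovered reads were 177, 141 and 244 in the exosome libraries and 342, 434 and 544 in the saline libraries. The log2 difference was -1.31 with a pseudocount of 0.1 and -1.35 in the voom fit, since a pseudocount of 1 dampens a gene at this level.

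Dusp8, which like Dusp10 is directed at JNK and p38 and is best known from heart and brain, stood at 16.2, 18.2 and 15.4 FPKM in exosome 1, 2 and 3. In saline 1, 2 and 3 it stood at 21.2, 34.3 and 34.0 FPKM. Saline 1 again lay nearest to the exosome libraries, at about the distance between exosome 2 and exosome 3. Means were 16.6 ± 1.43 FPKM with exosomes and 29.8 ± 7.52 FPKM with saline (SD, n = 3 each), a ratio of 0.556 and a log2 difference of -0.78 with a standard error of 0.19. For both genes the spread lay in the saline group: the coefficient of variation of Dusp10 was 4.47% with exosomes and 22.3% with saline, and that of Dusp8 was 8.65% with exosomes and 25.2% with saline. Without saline 1 the log2 differences were -1.19 for Dusp10 and -1.0 for Dusp8, and neither gene was called in any fit that left out a library.

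Dusp16, the third JNK- and p38-directed gene, had overlapping groups. It stood at 11.3, 17.6 and 10.9 FPKM in exosome 1, 2 and 3, against 10.4, 12.1 and 17.7 FPKM in saline 1, 2 and 3. A single library of each group, exosome 2 and saline 3, was high. The means were 13.2 ± 3.73 FPKM with exosomes and 13.4 ± 3.85 FPKM with saline, and the sign of the log2 difference (-0.01) turned in 5 of the 12 other settings. Summed over Dusp8, Dusp10 and Dusp16, the level was 29.4, 37.6 and 28.3 FPKM in exosome 1, 2 and 3 and 35.3, 51.8 and 57.7 FPKM in saline 1, 2 and 3, so exosome 2 lay above saline 1.

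**Figure D2:**
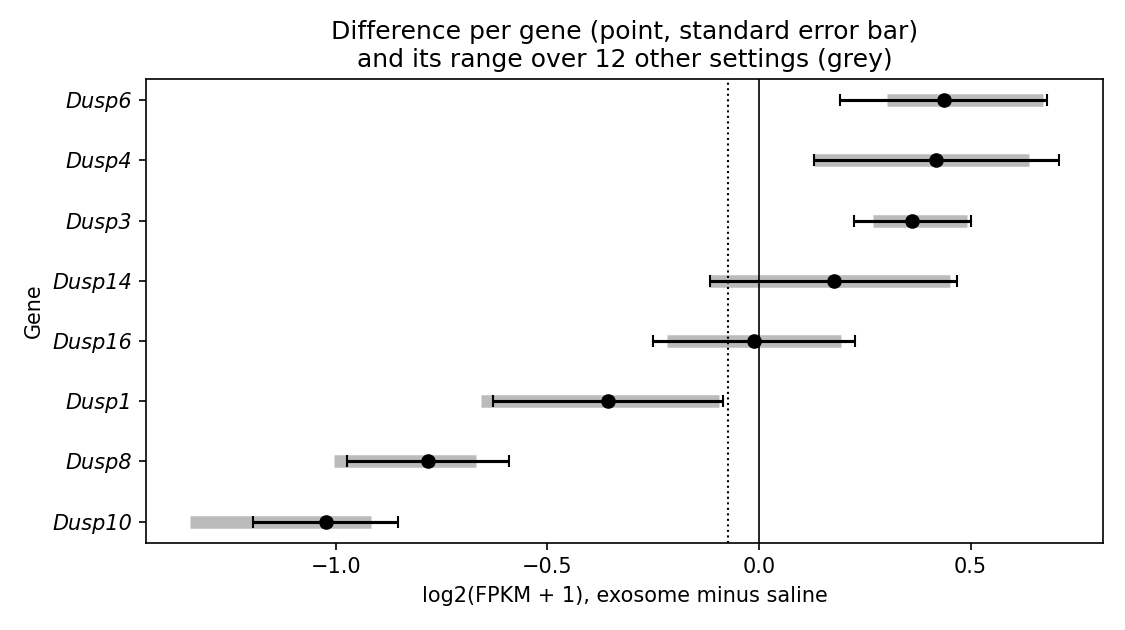
Log2 difference (exosome minus saline, log2(FPKM + 1)) of the 8 phosphatase genes in the fit, with limma's standard error as a bar, and in grey the range over the 12 other settings, leaving out each library included. The dotted line is the median of all tested genes, -0.07. Dusp10, Dusp8 and Dusp1 stay below 0 and Dusp3, Dusp4 and Dusp6 above it over the whole grey range, while Dusp16 and Dusp14 cross 0.

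The nuclear, inducible phosphatases were dominated by Dusp1, an early response gene that acts on p38, JNK and ERK and is also known as a target of glucocorticoids. It stood at 218.8, 245.5 and 291.2 FPKM in exosome 1, 2 and 3, against 211.6, 336.6 and 462.4 FPKM in saline 1, 2 and 3. Saline 1 was the lowest of all 6 libraries, and saline 2 and 3 lay above every exosome library, so the groups overlapped through saline 1 alone. Means were 251.8 ± 36.6 FPKM with exosomes and 336.9 ± 125.4 FPKM with saline (SD, n = 3 each), and the log2 difference was -0.36 with a standard error of 0.27. It was -0.66 without saline 1 and -0.09 without saline 3, the extremes over the 12 other settings.

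Dusp4, a nuclear phosphatase close to Dusp1 in structure, stood at 2.40, 5.88 and 3.17 FPKM in exosome 1, 2 and 3. In saline 1, 2 and 3 it stood at 1.88, 2.16 and 3.49 FPKM. Exosome 2 was high, and the other exosome libraries lay within the range of the saline libraries. The log2 difference was 0.42 with a standard error of 0.29, from 75 to 196 reads per library. Dusp5, which acts on ERK in the nucleus, stood at 0.0962, 0.280 and 0.380 FPKM in exosome 1, 2 and 3 and at 0.431, 0.265 and 0.328 FPKM in saline 1, 2 and 3, with overlapping groups. Dusp2, which is best known from activated immune cells, stood at 0.214, 0.240 and 0.549 FPKM in exosome 1, 2 and 3 and at 0.511, 0.124 and 0.0720 FPKM in saline 1, 2 and 3. It was high in exosome 3 and in saline 1, and a difference in either of these low genes was not detectable at this depth.

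Dusp6, the cytoplasmic phosphatase that acts on ERK and serves as its feedback inhibitor, stood at 13.6, 20.9 and 21.3 FPKM in exosome 1, 2 and 3, against 18.7, 10.8 and 11.3 FPKM in saline 1, 2 and 3. Exosome 2 and 3 were high, saline 2 and 3 were low, and exosome 1 and saline 1 lay between them in the reverse order. Means were 18.6 ± 4.35 FPKM with exosomes and 13.6 ± 4.43 FPKM with saline, with a log2 difference of 0.44 and a standard error of 0.25.

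Of the small phosphatases, which lack the domain that docks onto MAP kinases, Dusp3 is known for acting on ERK and JNK. It stood at 84.6, 87.0 and 97.2 FPKM in exosome 1, 2 and 3, against 83.2, 65.9 and 60.8 FPKM in saline 1, 2 and 3. The groups did not overlap, but saline 1 and exosome 1 lay close together. Means were 89.6 ± 6.67 FPKM with exosomes and 69.97 ± 11.7 FPKM with saline (SD, n = 3 each), a ratio of 1.28 and a log2 difference of 0.36 with a standard error of 0.14. When the libraries were rescaled by the median of ratios the groups of Dusp3 overlapped, although the log2 difference was 0.43. Dusp14, known as a brake on T cell receptor signalling, stood at 5.89, 3.84 and 9.68 FPKM in exosome 1, 2 and 3 and at 6.86, 4.58 and 4.64 FPKM in saline 1, 2 and 3. Exosome 3 was the highest and exosome 2 the lowest of the 6, and the log2 difference of 0.18 turned to -0.12 without exosome 3. A row named Dusp14l1 reached at most 0.0854 FPKM, and whether reads were shared between it and Dusp14 could not be told.

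Saline 1 bore on several of these genes at once. Measured as the deviation of log2(FPKM + 1) from the mean over the 6 libraries, Dusp1 was at -0.37, -0.21 and 0.04 in exosome 1, 2 and 3, and at -0.42, 0.25 and 0.71 in saline 1, 2 and 3. Dusp8 was at -0.42, -0.26 and -0.49 in the exosome libraries and at -0.05, 0.62 and 0.61 in the saline libraries. Over 21 immediate early genes the mean deviation was -0.59, -0.67 and 0.11 in exosome 1, 2 and 3 and 0.03, 0.42 and 0.71 in saline 1, 2 and 3. Without saline 1 the groups did not overlap for 6 of the 10 phosphatase genes: Dusp1, Dusp8 and Dusp10 were then lower with exosomes and Dusp2, Dusp3 and Dusp6 higher. Of these Dusp2, at 4 to 40 reads per library, lay outside the fit and rests on too few reads. Leaving out any 1 library raises the share of all tested genes whose groups do not overlap by construction. This share was 39.9% without saline 1, 48.4% without exosome 2 and 25.8% without exosome 3, against 21.1% with all 6 libraries. None of the 8 phosphatase genes in the fit was called by limma without saline 1. The part of tissue handling or of stimulation before sampling in these values was not tested.

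**Figure D3:**
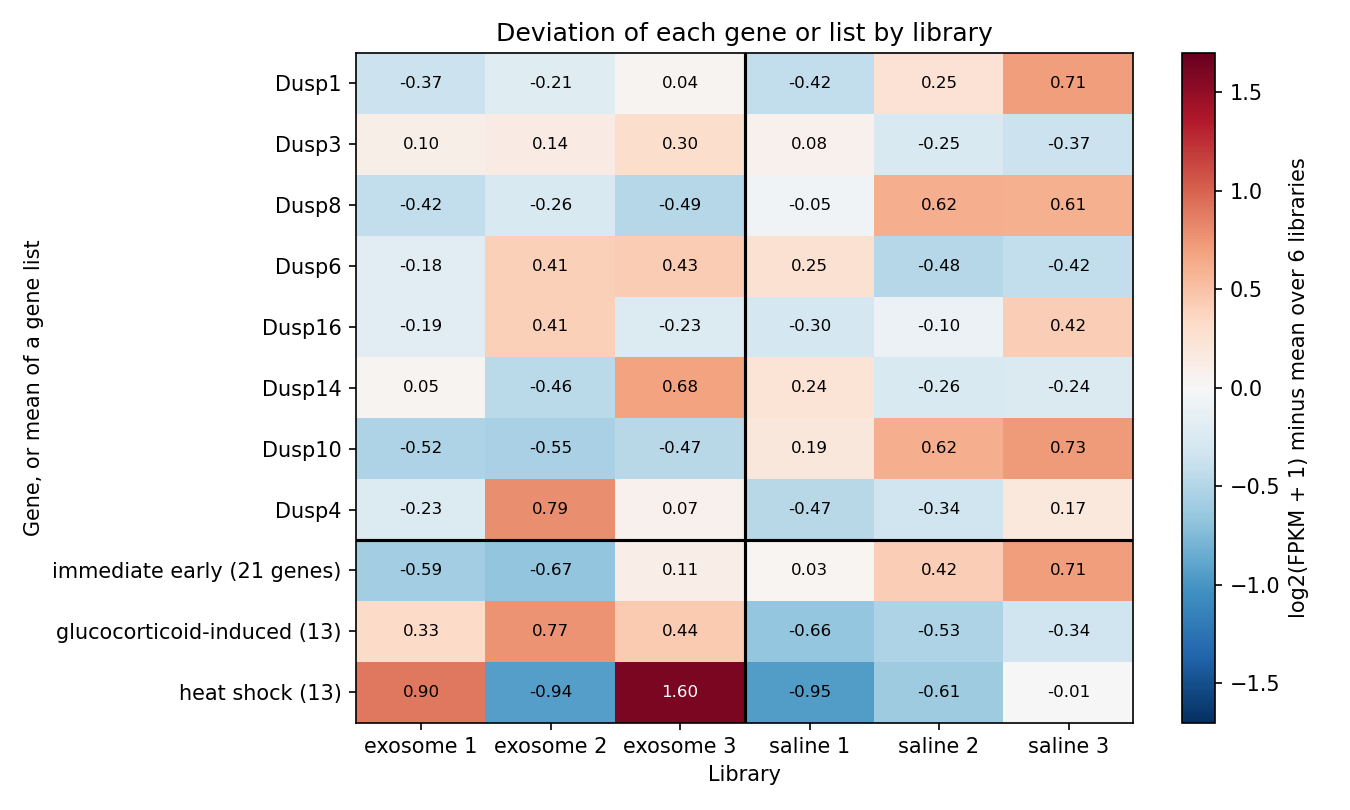
Deviation of log2(FPKM + 1) from the mean over the 6 libraries for the 8 phosphatase genes in the fit, above the mean deviation of the genes of 3 lists, with exosome libraries left of saline libraries. Dusp10, Dusp8, Dusp1 and the mean of the immediate early genes are highest in saline 2 and 3, whereas the heat shock genes are high in exosome 1 and 3 only and the glucocorticoid-induced genes are above 0 in all 3 exosome libraries.

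The genes with the most similar pattern over the 6 libraries were looked up for Dusp1, Dusp6 and Dusp10, by Pearson's r of log2(FPKM + 1) among all tested genes. For Dusp1 they were Col27a1 (r = 0.997), a collagen gene, Wls (0.991), which encodes the carrier of Wnt ligands, and Fam46c (0.980). For Dusp6 they were Mrto4 (0.988) and Pwp2 (0.986), both ribosome assembly genes, and Lsr (0.984). For Dusp10 they were the mitochondrial ribosomal gene Mrpl48 (0.994), Prpsap2 (0.994) and Ptgs2 (0.993), which encodes the inducible cyclooxygenase. These were the highest values among the 11742 tested genes, over only 6 libraries in 2 groups, so high values are bound to occur. Of the tested genes 105, 57 and 267 had r over 0.9 with Dusp1, Dusp6 and Dusp10. The r values describe these libraries, whose scaling the genes share.

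The rest of the MAP kinase pathway was examined in 8 lists of phosphatases, kinases and feedback regulators, which do not include the 10 genes above. Of their 63 tested genes none passed limma's adjusted threshold of 0.05, where 0.00852% of all genes did, and voom called none. At an unadjusted p under 0.05 limma had 10 as higher and 2 as lower, 19% of the 63. Of all genes it had 16% there, 6.75% as higher and 9.24% as lower. The median log2 difference was 0.035, with 37 genes higher, 58.7% of the 63, against 39.3% of all tested genes. These lists were chosen with earlier results of these data known, so nothing is read from the counts.

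Among other phosphatases, Dusp7, a cytoplasmic ERK phosphatase, stood at 6.22, 6.33 and 7.23 FPKM in exosome 1, 2 and 3, against 5.01, 4.68 and 5.56 FPKM in saline 1, 2 and 3. The groups did not overlap, and limma's Benjamini-Hochberg adjusted p was 0.293. Dusp9 was listed at 0 in all 6 libraries. Of 15 atypical DUSP genes 8 were tested, with a median log2 difference of -0.18 and none called. Dusp19, an atypical member known for binding kinases of the JNK pathway, stood at 3.49, 4.17 and 2.96 FPKM in exosome 1, 2 and 3 and at 5.24, 5.62 and 7.74 FPKM in saline 1, 2 and 3. Its groups did not overlap either, at a log2 difference of -0.66 (adjusted p = 0.255 in limma). Dusp18 had a log2 difference of 0.40 (adjusted p = 0.326) and Dusp28 of -0.48 (adjusted p = 0.437). Of the phosphatases outside the DUSP family 6 of 9 were tested, and the catalytic subunit gene Ppp2cb had the smallest p, with a log2 difference of 0.34 (adjusted p = 0.285). Ppp2ca, which encodes the other catalytic subunit of the same phosphatase, had 0.27 (adjusted p = 0.422), and Ppm1a had 0.17 (adjusted p = 0.414).

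The MAP kinase genes themselves differed little between the groups, and none was called. Mapk3, which encodes an ERK kinase, had a log2 difference of -0.01 with a standard error of 0.13. Mapk14, which encodes p38 alpha, had 0.035 with a standard error of 0.12 (adjusted p = 0.888 in limma). The JNK genes Mapk8 and Mapk9 had -0.06 (adjusted p = 0.812) and -0.12 (adjusted p = 0.645). All 7 tested of the 13 MAP kinase genes lay between -0.12 and 0.035. Mapk7, although widely expressed, was listed at 0 in all libraries.

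The kinases upstream varied more, and none passed the threshold. Map2k6, which activates p38, stood at 3.86, 3.96 and 1.47 FPKM in exosome 1, 2 and 3, against 4.48, 7.36 and 7.17 FPKM in saline 1, 2 and 3. Its groups did not overlap, and the log2 difference was -0.88 with a standard error of 0.30 (adjusted p = 0.284 in limma). Map2k4, which activates JNK and p38, stood at 20.6, 15.3 and 19.1 FPKM in exosome 1, 2 and 3 and at 13.7, 13.6 and 14.6 FPKM in saline 1, 2 and 3, with a log2 difference of 0.36 (adjusted p = 0.288). Map2k5 had -0.19 (adjusted p = 0.571). Of 21 RAF and MAP3K genes 15 were tested and 10 were higher. Map3k6, a stress-activated kinase gene, stood at 2.82, 3.21 and 3.76 FPKM in exosome 1, 2 and 3, against 1.41, 1.08 and 1.12 FPKM in saline 1, 2 and 3. Its log2 difference was 0.95 with a standard error of 0.15 (adjusted p = 0.219). Map3k6 is also on the list of glucocorticoid-induced genes described below. Map3k5 had 0.65 (adjusted p = 0.310).

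Downstream, 9 of 11 genes of MAP kinase-activated kinases were tested, and none was called. In 3 of them (Mknk2, Mapkapk2 and Mapkapk5) the exosome libraries were higher with no overlap, as they were for 9.4% of all tested genes. Mknk2, a kinase of the translation factor eIF4E, had a log2 difference of 0.57 (adjusted p = 0.255 in limma). Mapkapk2, the p38-activated kinase, had 0.35 (adjusted p = 0.281), and Mknk1, whose groups overlapped, had -0.35 (adjusted p = 0.321). Of 11 feedback regulators 10 were tested and 8 were higher. Errfi1, an inhibitor of the EGF receptor, stood at 245.1, 328.5 and 192.2 FPKM in exosome 1, 2 and 3, against 133.5, 129.6 and 100.4 FPKM in saline 1, 2 and 3, with a log2 difference of 1.05 (adjusted p = 0.237). Errfi1 is also a glucocorticoid-induced gene. The ERK pathway inhibitors Spred2 and Spry4 had 0.38 (adjusted p = 0.285) and 0.35 (adjusted p = 0.356).

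**Figure D4:**
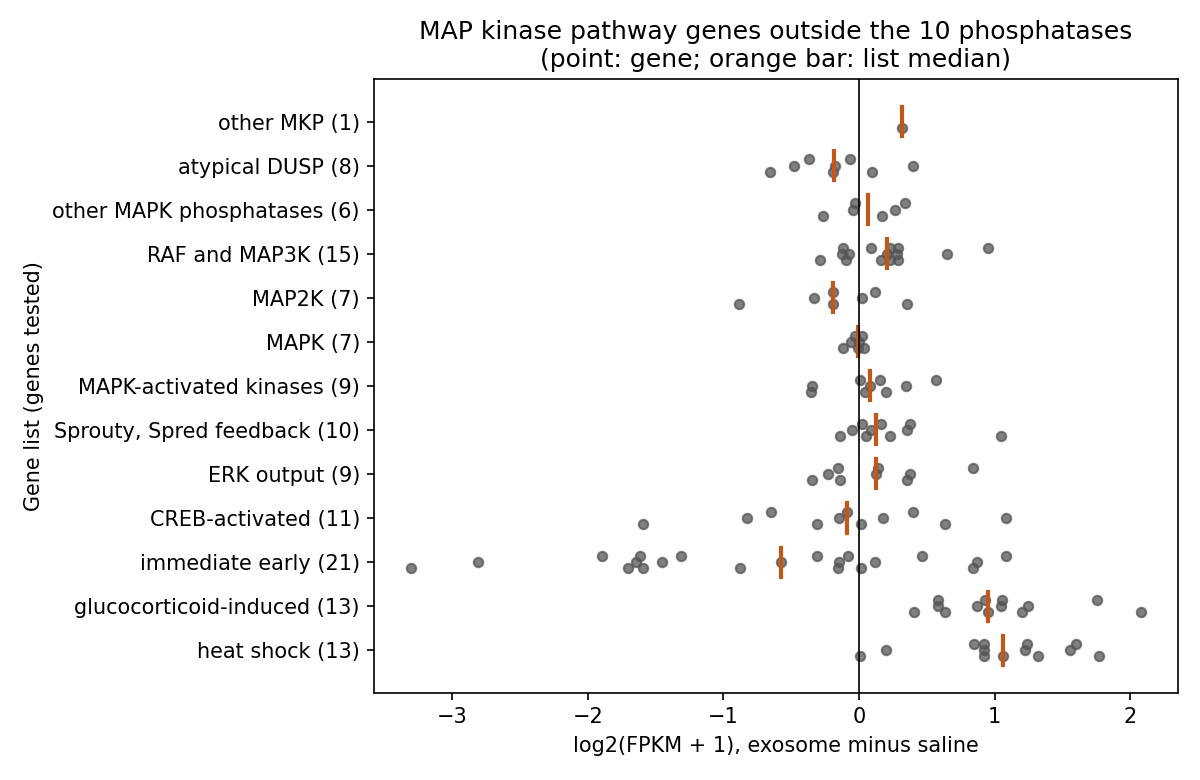
Log2 differences (exosome minus saline, log2(FPKM + 1)) of MAP kinase pathway genes outside the 10 phosphatases, with 1 point per tested gene and an orange bar at each list's median. The MAP kinase genes lie between -0.12 and 0.035, the immediate early genes spread from -3.31 to 1.08, and all 13 glucocorticoid-induced and all 13 heat shock genes lie above 0.

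Genes that MAP kinases, cAMP or glucocorticoids switch on together with DUSP genes were set beside them. These lists were chosen with earlier results of these data known, so nothing is read from their counts. Of 9 tested genes of ERK output, which include Spry4, 5 were higher and none was called. Fosl1 had a log2 difference of 0.84 (adjusted p = 0.291 in limma) and Epha4 one of 0.38 (adjusted p = 0.464). Of 21 tested immediate early genes 15 were lower with exosomes, with a median of -0.58 and none called, where 7133 of all 11742 tested genes were lower. At an unadjusted p under 0.05 limma had 10 of the 21 immediate early genes as lower and 2 as higher, and voom called none. Of all tested genes it had 9.24% as lower and 6.75% as higher at the same limma threshold. Ptgs2 had a log2 difference of -3.31 (adjusted p = 0.219), Cyr61 of -1.89 (adjusted p = 0.237) and Egr3 of -1.62 (adjusted p = 0.255). Of 11 tested genes activated through CREB 6 were lower, with a median of -0.09 and none called, close to the median of -0.07 over all tested genes. Pde4d had -0.65 (adjusted p = 0.261), Per1 had 0.64 (adjusted p = 0.283) and Fosb had -1.60 (adjusted p = 0.307).

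Glucocorticoid-induced genes were on a list written with earlier results of these data known. All 13 were higher with exosomes, where 39.3% of all tested genes were, and the median log2 difference was 0.95. At an unadjusted p under 0.05 limma had 11 of them as higher, where it had 6.75% of all tested genes. Since the list was written with these data known, nothing is read from these counts. Zbtb16, a zinc finger factor, rose past the adjusted threshold (log2 difference 2.08, adjusted p = 0.00806 in limma) and was the only one of the 11742 tested genes to do so. Its call was lost without exosome 1 (adjusted p = 0.0503) and without saline 3 (adjusted p = 0.0865). Fkbp5 had 1.75 (adjusted p = 0.219) and Nfkbia 1.20 (adjusted p = 0.219). Dusp1, often listed with these genes, had -0.36. The heat shock list was also chosen with earlier results of these data known, so nothing is read from its counts. All 13 tested heat shock genes had a log2 difference above 0 (0.006 for Dnajb1), with a median of 1.06 and none called. For none of them were the groups apart. Their mean deviation was 0.90, -0.94 and 1.60 in exosome 1, 2 and 3, and -0.95, -0.61 and -0.01 in saline 1, 2 and 3, so exosome 2 did not share the higher level. Chordc1 (1.06, adjusted p = 0.308 in limma), Hsp90ab1 (0.92, adjusted p = 0.314) and Hspb8 (0.85, adjusted p = 0.319) had the smallest p.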

How the data were processed

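Rat aorta RNA was sequenced in 6 libraries, grouped by the treatment in the labels. The authors deposited FPKM (reads divided by gene length and library size) in a single table of 24005 gene symbols, with 1 column per library. Per the labels' protocols, libraries were made with the SMARTER mRNA-seq kit. The submitters' processing notes name DESeq2 1.28.1 without saying what it did. Aligner, counter, strand setting, build and annotation: not given in the sources used here. Reads of overlapping or near-identical genes could not be separated.

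Whole reads (or read pairs) and gene lengths were recovered from the FPKM steps within 0.02 reads for 99.99% of the 18430 genes above 0. Lengths were allowed to end in 0.5, since this made the library totals whole.

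The test was limma 3.58.1 (R 4.3.3) on log2(FPKM + 1), with an intensity trend and moderated variance, two-sided and without covariates, over the 11742 genes with a mean of at least 1 FPKM. P-values were adjusted over all of them after Benjamini and Hochberg, and called below 0.05. Log2 differences on this scale understate the change of low genes. SDs are of FPKM, standard errors are from limma. Alternatives were another pseudocount, no filter, 2 rescalings, a replicate block, limma-voom on the recovered reads and each library left out. The fit was tested on simulated data. Python 3.11.15 drew the plots.

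The 10 phosphatase genes and the pathway lists were chosen with earlier results of these data known. Named pathway genes were all those past the threshold and up to 3 more of each list with the smallest unadjusted p; genes named outside this rule were picked with their values in view. Some genes that the rule takes are left out of the text. Promoter sequences are from RefSeq (GRCr8), a build that served for names and promoters only.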

Additional observations from a re-analysis of the deposited data

How the results depend on the processing

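The 12 other settings called none of the 8 phosphatase genes in the fit. Only the 2 rescalings could make groups that were apart overlap, since the other settings kept the FPKM values or dropped a library. Dusp8 and Dusp10 stayed apart under both rescalings. Dusp3 stayed apart when libraries were rescaled to the same sum, but not under the median of ratios. There 2 of the 10 genes in place of 3 had groups apart. Log2 differences ranged from -1.35 to -0.92 for Dusp10, -1.0 to -0.67 for Dusp8 and 0.27 to 0.49 for Dusp3. With 1 library left out, 3 to 6 of the 10 genes had groups apart. The highest number, which counts Dusp2 from outside the fit, came without saline 1. Over all genes the number apart was then 3028 to 5684 (48.4% without exosome 2), against 2483, which fewer libraries raise by construction. The median of the 8 genes was -0.04 to 0.15 in these fits.

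Over all genes limma called 1 in the 6 settings that kept every library and 0 to 9 with a library left out, of which 0 to 7 were lower; Zbtb16 was lost without exosome 1 and without saline 3. Of the pathway genes 0 to 8 were called, with 8 (Atf3, Btg2, Cyr61, Jun, Klf6, Nfkbia, Ptgs2 and Zbtb16) without saline 1; the cause was not tested. Of 432 values of 36 named pathway genes 4 turned sign: Mapk8 to 0.004 under the median of ratios and, with libraries left out, within -0.121 to 0.004, and Mapk14, with libraries left out, within -0.051 to 0.094.

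No pairing of the samples by the replicate numbers of the titles was visible. Deviations of same-numbered libraries correlated at 0.07, 0.10 and -0.17, and only exosome 1 and saline 2 correlated best with their own number. These correlations cannot show that there was no pairing. A replicate block left the count of calls at 1. Depth limits Dusp2 and Dusp5, with 4 to 41 reads.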

Other observations

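Map2k3, which encodes an activator of p38, varied more between libraries than between groups, as a gene singled out after its values were seen. It stood at 2.63, 12.5 and 2.27 FPKM in exosome 1, 2 and 3 and at 2.10, 6.56 and 12.7 FPKM in saline 1, 2 and 3. Exosome 2 and saline 3, its highest libraries, were also the highest libraries for Dusp16, at 17.6 FPKM in exosome 2 and 17.7 FPKM in saline 3, and for Dusp4, at 5.88 FPKM in exosome 2 and 3.49 FPKM in saline 3. Dusp15, an atypical member below the expression minimum, stood at 0.308, 0.320 and 0.338 FPKM in the exosome libraries and at 0.630, 0.443 and 0.546 FPKM in the saline libraries, so its groups did not overlap.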
